A study of Apis mellifera with 12 samples.

Results

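miR-316 is a microRNA (miRNA) of insects, known in Drosophila as well as in the honey bee (Apis mellifera). On the array it is the reporter ame-miR-316, 1 of the 127 bee miRNA reporters that could be tested, with 41 more on the array that were detected on too few arrays. It was chosen by its values in these same arrays: its level, its difference between the treatments and its relation to other miRNAs were known when it was picked. Both treatment groups were workers injected when newly emerged with 2 µL of double-stranded RNA (dsRNA) at 10 µg/µL, and were sampled as foragers, as the labels call them, at an age of 15 days, when the abdominal carcass with its fat body was kept. The 6 dsRNA-Vg pools came from bees given dsRNA against vitellogenin, the yolk precursor protein that the fat body secretes. The 6 dsRNA-GFP pools came from bees given dsRNA against green fluorescent protein, a sham target that bees lack. Each pool joined small RNA from 5 bees, 400 ng each, and was hybridised to 1 array. No uninjected bees were measured here, and neither the vitellogenin transcript nor its knockdown was analysed here.

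MicroRNAs are short RNAs cut from hairpin precursors and loaded into Argonaute proteins, which they guide to messenger RNAs. Pairing runs mainly through the seed, the bases near the 5′ end of the mature RNA, and usually lowers translation or stability of the target. The insect fat body does the work that liver and fat tissue share in vertebrates: it stores lipid and glycogen and releases vitellogenin into the haemolymph. No role of miR-316 in this tissue is assigned here.

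The sequence that the miR-316 reporter targets is shown with 4 others that the results turn on. miR-14, a regulator of fat metabolism in Drosophila, has the longest run of bases in common with miR-316, and miR-2, of the miR-71, miR-2 and miR-13 cluster, has the most matching positions. miR-34, tied to ageing in the fly, and miR-31a, an epithelial miRNA in the fly, had the highest correlation with miR-316 from pool to pool in 1 normalization each, miR-34 with quantile normalization and miR-31a with cyclic loess. Sequences are those of the scanner files, 5′ to 3′, with the seed (bases 2 to 8) in capitals.
miR-316: uGUCUUUUuccgcuuugcugccg
miR-14: uCAGUCUUuuucucucuccua
miR-2: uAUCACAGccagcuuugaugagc
miR-34: uGGCAGUGuuguuagcugguug
miR-31a: gGCAAGAUgucggcauagcuga

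miR-316 is 23 bases long and holds 11 U, 7 C, 5 G and 0 A, with 5 U in a row. None of the other 167 reporters shared its seed, either over bases 2 to 8 or over bases 2 to 7. Its closest match without gaps was miR-2 at 12 positions, 11 more reporters matched at 11, and the median reporter matched at 8. miR-14 shared a run of 9 bases that takes in the whole miR-316 seed. That run starts at base 2 of miR-316 but at base 4 of miR-14, so the seeds differ. The next longest runs were of 6 bases, in 18 reporters. In the RefSeq annotation of assembly Amel_HAv3.1 the gene Mir316 lies inside 0 other genes. Its neighbours there are LOC107965086 and LOC113219056, both long non-coding RNA genes, and 0 other miRNA genes lie within 50 kb.

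The signal of miR-316 was well above background on every array. Each array carried the reporter in 18 spots, and on all 12 arrays all 18 spots exceeded the 95th percentile of the 628 empty spots. The median of the 18 spots was 1323, 800, 778, 1070, 1148 and 1425 intensity units in dsRNA-Vg pools 1 to 6, against 1030, 1781, 595, 959, 739 and 1130 in dsRNA-GFP pools 1 to 6. On this scale, before any correction, the groups overlapped fully: dsRNA-GFP pool 2 was the brightest of the 12 and dsRNA-GFP pool 3 the dimmest. The empty spots also differed between arrays, with medians of 150.2 to 419.4 units on dsRNA-Vg arrays and 247.9 to 491.3 on dsRNA-GFP arrays. Relative to the empty spots of its own array, miR-316 read 4.19 ± 1.08 times their median in dsRNA-Vg pools and 2.91 ± 0.80 times in dsRNA-GFP pools (SD, n = 6 each). In this ratio 3 of the 6 pools given dsRNA-Vg exceeded the whole dsRNA-GFP group.

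**Figure D1:**
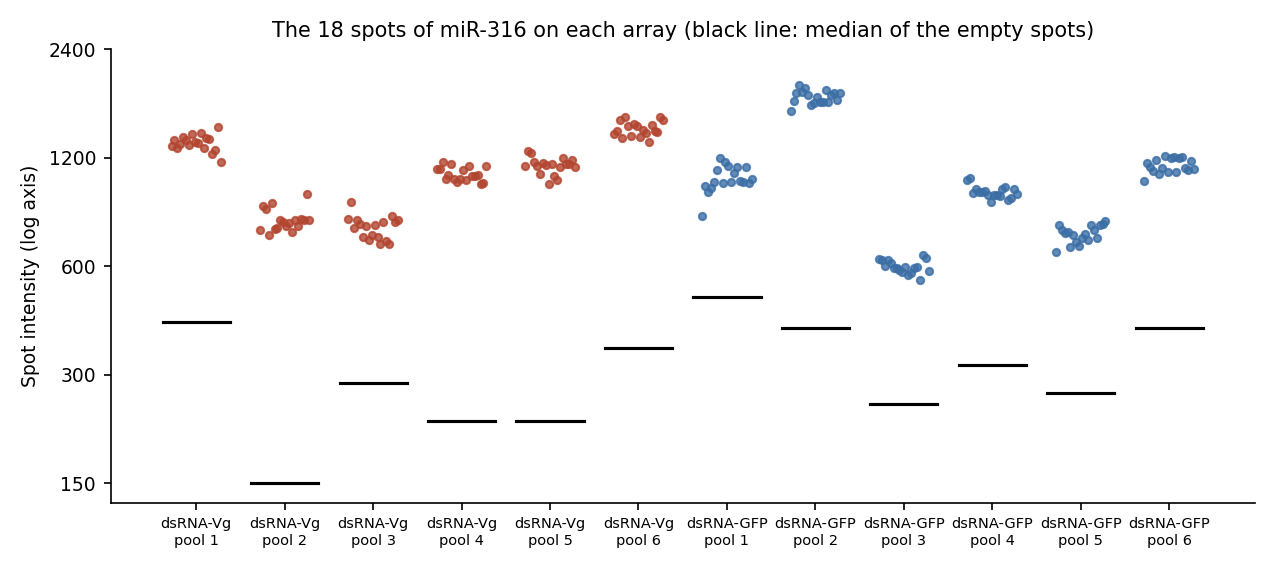
Intensity of each of the 18 miR-316 spots (points, log axis) on the 6 dsRNA-Vg arrays (red) and the 6 dsRNA-GFP arrays (blue), with the median of the 628 empty spots of the same array as a black line. The spots of 1 array lie close together and all lie above the line, whereas both the spots and the empty spots move from array to array.

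Spots of 1 array agreed closely. Their coefficient of variation was 4.51% to 7.33% on dsRNA-Vg arrays and 3.94% to 8.30% on dsRNA-GFP arrays, and on 11 of 12 arrays it was below the median of the 35 reporters detected on all arrays. The pooled SD between pools within a treatment was 0.25 on the normalized log2 scale (normexp correction with offset 50, then quantile normalization between arrays). The standard error of a pool's mean over its 18 spots was 0.03 on that scale. That error holds the noise within an array only, while the SD between pools also holds whatever differs from array to array, and the number of pools limits the precision. All 18 array positions of the reporter had a positive difference, dsRNA-Vg minus dsRNA-GFP, from 0.07 to 0.43 on the log2 scale. These positions share the same 12 RNA pools and are not replicates. The 3 positions in the first of the 6 rows averaged 0.34, and those of the other 5 rows averaged 0.16 to 0.19.

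On the normalized log2 scale miR-316 read 10.16, 9.54, 9.66, 9.68, 9.44 and 10.21 in dsRNA-Vg pools 1 to 6. It read 9.65, 9.29, 9.66, 9.74, 9.58 and 9.56 in dsRNA-GFP pools 1 to 6. dsRNA-Vg pools 1 and 6 lay above all others, and the other 4 dsRNA-Vg pools lay within the range of the dsRNA-GFP pools. The mean was 9.78 ± 0.32 in dsRNA-Vg pools and 9.58 ± 0.15 in dsRNA-GFP pools (SD, n = 6 each). The difference in log2 level was 0.21 (SE 0.14 by limma, 95% interval -0.10 to 0.51), a 1.15-fold higher level after dsRNA-Vg, and it was smaller than the SD of 0.32 among the dsRNA-Vg pools. In bulk samples such as these pools, fewer cells of a type and less RNA per cell cannot be told apart. Leaving out dsRNA-Vg pool 1 gave 0.13, leaving out dsRNA-Vg pool 6 gave 0.12, and each of the 12 removals kept a positive value.

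The deposited value table, in which the authors give 1 intensity per miRNA and pool, set the groups further apart. miR-316 had intensities of 1083, 1097, 806, 1081, 1091 and 1705 in dsRNA-Vg pools 1 to 6, against 641, 706, 743, 841, 823 and 799 in dsRNA-GFP pools 1 to 6. All dsRNA-Vg pools but pool 3 exceeded the whole dsRNA-GFP group, and pool 3 lay below 2 of its pools, so that the dsRNA-Vg pool was the higher one in 34 of 36 pairs. The mean was 1144 ± 297 in dsRNA-Vg pools and 758.8 ± 76.7 in dsRNA-GFP pools (SD, n = 6 each). On the log2 scale the difference was 0.56 (SE 0.18 by limma, 95% interval 0.18 to 0.95), or 1.48-fold. It was 0.44 without dsRNA-Vg pool 6 and 0.66 without dsRNA-Vg pool 3. As a share of the summed intensity of the table, which describes the signal and not the abundance of the RNA, miR-316 made up 0.700% ± 0.178 in dsRNA-Vg pools and 0.470% ± 0.0428 in dsRNA-GFP pools (SD, n = 6 each).

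**Figure D2:**
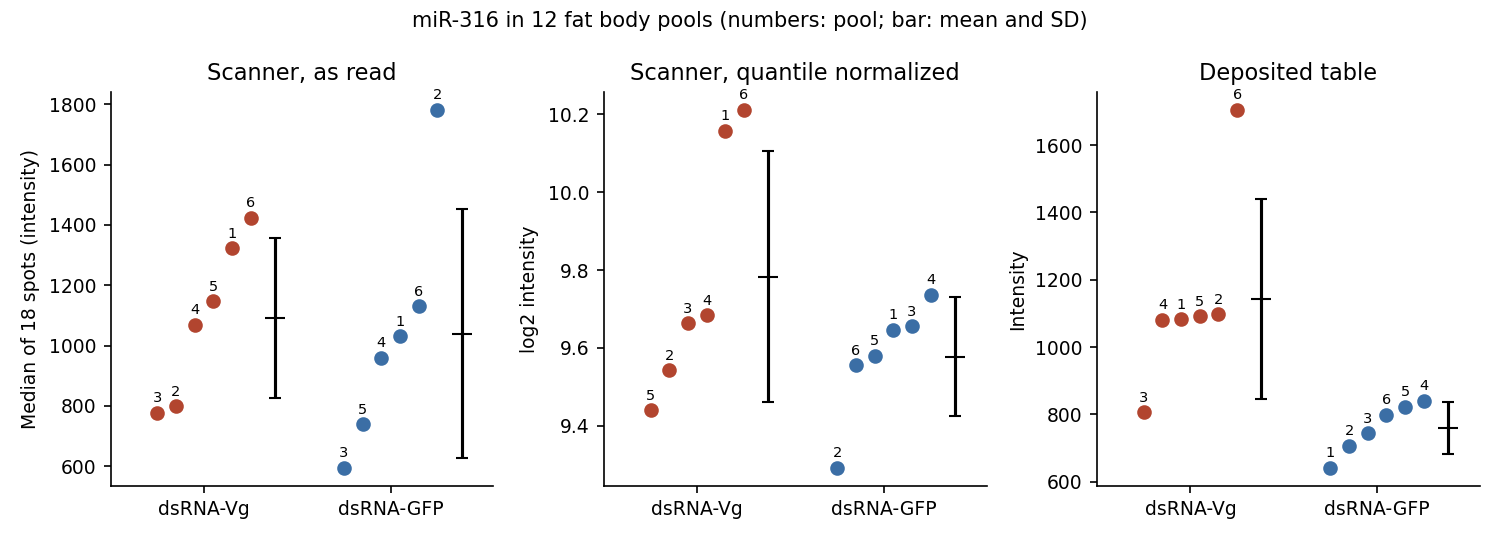
miR-316 in the 6 dsRNA-Vg pools (red) and the 6 dsRNA-GFP pools (blue) as median scanner intensity of 18 spots, as quantile-normalized log2 intensity and as intensity in the deposited table. Each point is 1 pool with its number, and bars give the mean and SD. The groups overlap in the first panel, dsRNA-Vg pools 1 and 6 stand above in the second, and all dsRNA-Vg pools but pool 3 stand above in the third.

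Since miR-316 was chosen with this contrast known, its difference between treatments is given as a description with no p, and the same holds for what follows on processing. In the fit over all 127 reporters tested, limma called 2 at an adjusted p under 0.05, or 1.57%, in the scanner values and likewise 2, or 1.57%, in the deposited table. The groups did not overlap for 3 reporters, or 2.36%, in the scanner values and for 2, or 1.57%, in the deposited table. miR-316 is among none of these, and nothing is read from that.

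The direction was the same in all 11 ways of obtaining a level that were compared, and the size was not. The log2 difference was 0.17 without background correction, 0.21 with a normexp offset of 16 in place of 50, 0.23 with a surface fitted to the empty spots subtracted, and 0.22 with the median of the spots. It was 0.08 with cyclic loess, the smallest value, and 0.16 with scaling to the 35 reporters detected on all arrays. It was 0.28 without normalization between arrays and 0.51 with scaling to the median. The largest of the 11 was 0.57, in the deposited table scaled to the median. In 2 settings the median difference of all 127 reporters lay more than 0.1 from 0: at -0.22 without normalization between arrays and at -0.34 with scaling to the 35 reporters. Relative to the median of all reporters in the same setting, miR-316 differed by 0.21 in the normalized scanner values and by 0.61 in the deposited table. In other scanner settings it differed by 0.50 without normalization between arrays and with scaling to the median or to the 35 reporters. These settings differ from each other only by a constant for each array, so an equal value is fixed by construction. With cyclic loess miR-316 differed by 0.10. Ordered by this difference, miR-316 stood at place 11 of 127 from the highest in the normalized scanner values and in the deposited table. It stood at place 8 without background correction and at place 28 with cyclic loess.

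**Figure D3:**
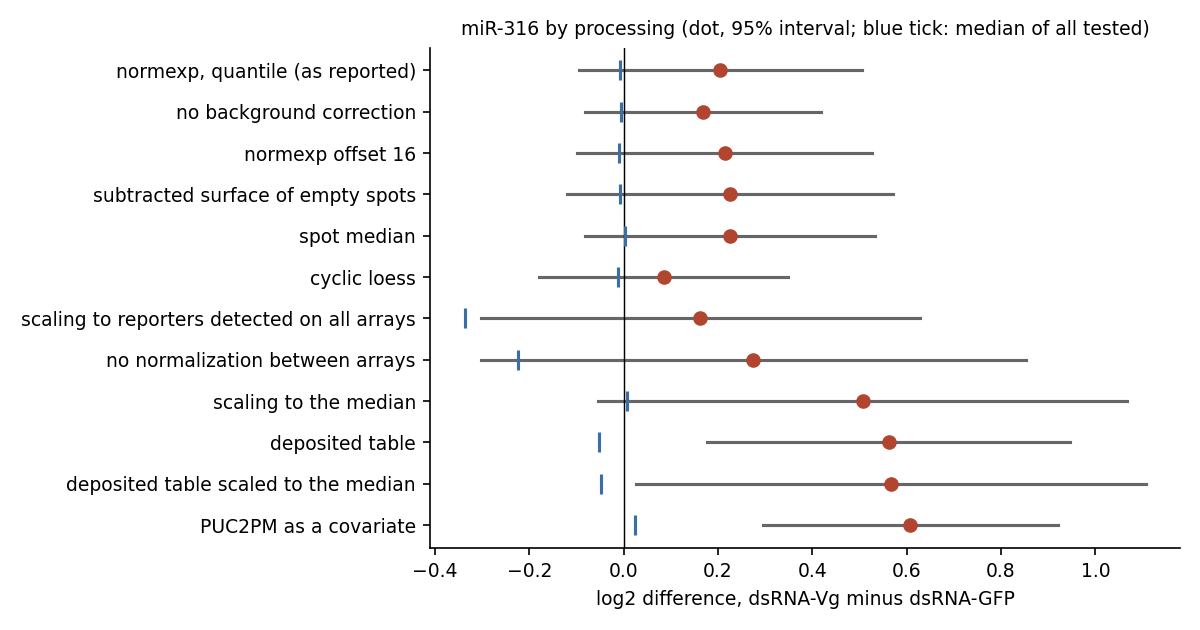
Difference in log2 level of miR-316, dsRNA-Vg minus dsRNA-GFP, under 11 ways of processing and with the control reporter PUC2PM as a covariate (red dots, with 95% intervals from limma as grey lines). Blue ticks give the median difference of the 127 reporters. All dots lie above 0, from 0.08 with cyclic loess to 0.61 with the covariate. The intervals lie wholly above 0 only in the 2 settings of the deposited table and with the covariate.

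The step between scanner and deposited values can be read array by array. For miR-316 the deposited log2 value exceeded the scanner's, before normalization between arrays, by 0.33 on average in dsRNA-Vg pools and by 0.05 in dsRNA-GFP pools. For the median of the 35 reporters detected on all arrays it did so by 0.12 in dsRNA-Vg pools and 0.22 in dsRNA-GFP pools. Over all 12 pools, the deposited difference of 0.56 is the sum of 0.28 in the scanner values and 0.29 from the step between the 2 kinds of value, while the median of those reporters moved by -0.10 in that step. This split rests on single arrays. Without dsRNA-GFP pool 2, the brightest of the 12 by scanner and the second lowest in the deposited table, the scanner part was 0.48 and the later step added 0.06. Without dsRNA-GFP pool 3, the dimmest by scanner, the scanner part was 0.12, the later step added 0.43, and the median of the 35 reporters moved by 0.11 in that step. Without dsRNA-Vg pool 6 the scanner part was 0.18 and the later step added 0.26. In dsRNA-GFP pool 2 the step was -1.07 for miR-316 and -0.78 for the median of the 35 reporters. Relative to that median, miR-316 moved furthest in dsRNA-GFP pool 1 (-0.58) and dsRNA-GFP pool 3 (-0.50). No source used here says how the authors normalized the table.

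The place of miR-316 in the order of signals within an array does not depend on any scaling of that array. By scanner intensity it was at place 18 to 22 from the brightest in dsRNA-Vg pools and at place 19 to 23 in dsRNA-GFP pools, among all bee miRNA reporters of the array. The quantile-normalized level follows this place closely and is not a separate result. It was 10.16 and 10.21 at place 18, in dsRNA-Vg pools 1 and 6, and 9.29 at place 23, in dsRNA-GFP pool 2. The mean place by scanner intensity was 19.8 ± 1.60 in dsRNA-Vg pools and 20.7 ± 1.37 in dsRNA-GFP pools (SD, n = 6 each), so the groups differed by less than 1 SD. In the deposited table the mean place was 20.2 ± 2.23 in dsRNA-Vg pools and 21.7 ± 0.82 in dsRNA-GFP pools (SD, n = 6 each), with dsRNA-Vg pool 6 at place 16. These places describe signals and not amounts of RNA, since each probe binds its target with its own efficiency. The reporters next to miR-316 in mean normalized signal were miR-252 and miR-279 above and miR-3477 and miR-3739 below. Their log2 differences in the same fit were 0.03 (SE 0.13), 0.10 (SE 0.26), -0.17 (SE 0.13) and 2.51 (SE 0.37).

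miR-14 carries the run of 9 bases that takes in the miR-316 seed, and its difference between the treatments was negative. It was chosen for description after its values were seen. In the deposited table it had intensities of 32, 17, 92, 38, 28 and 5 in dsRNA-Vg pools 1 to 6, against 477, 59, 82, 148, 36 and 44 in dsRNA-GFP pools 1 to 6. These groups overlap, and miR-14 was detected on 3 of 6 dsRNA-Vg arrays and 4 of 6 dsRNA-GFP arrays. Its log2 difference was -0.31 (SE 0.12) in the normalized scanner values and -1.83 (SE 0.70) in the deposited table. From pool to pool, centred within the treatments, miR-14 and miR-316 had a Pearson r of -0.14 in the scanner values and -0.80 in the deposited table (n = 12 pools). dsRNA-Vg pool 6 was the highest for miR-316 and the lowest for miR-14 in the deposited table, and without dsRNA-Vg pools 1 and 6 that r was -0.69. In the scanner values the sign depended on the setting. There r was 0.45 without those pools, 0.12 with scaling to the median and -0.33 with cyclic loess. It was 0.39 without normalization between arrays, where 124 of the 126 other reporters had a positive r. miR-2, the reporter with the most matching positions, had a log2 difference of 0.02 (SE 0.02), but quantile normalization holds this bright probe at a fixed value.

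The relation of miR-316 to other miRNAs from pool to pool was measured over the 12 pools, with log2 values centred within each treatment, so that a difference between treatments does not enter. All points share the array, its background and its normalization, and the values describe these pools with no test. In the normalized scanner values the 126 other reporters had r between -0.87 and 0.79 with miR-316, with a median of 0.01. The 5 most like it were miR-34 (r = 0.79, rho = 0.78), miR-3733 (r = 0.69, rho = 0.76), miR-31a (r = 0.64, rho = 0.71), miR-3749 (r = 0.64, rho = 0.50) and miR-210 (r = 0.64, rho = 0.64). miR-34 and miR-31a were detected on all 12 arrays, miR-3733 on 7, miR-3749 on 9 and miR-210 on 10, so 3 of the 5 lie near the background. The 3 least like it were miR-3756 (r = -0.87), miR-9a (r = -0.61) and miR-3796 (r = -0.61), detected on 6, 9 and 9 arrays.

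miR-34 read 12.69, 12.27, 12.17, 12.02, 11.93 and 12.57 on the normalized log2 scale in dsRNA-Vg pools 1 to 6. It read 11.88, 11.67, 12.36, 11.93, 12.05 and 11.79 in dsRNA-GFP pools 1 to 6. As for miR-316, dsRNA-Vg pools 1 and 6 were the highest of all pools and dsRNA-GFP pool 2 the lowest. Without dsRNA-Vg pools 1 and 6, the r of miR-34 with miR-316 was 0.52. miR-31a read 8.10 and 8.30 in dsRNA-Vg pools 1 and 6 and 7.60 to 7.82 in the other 4 dsRNA-Vg pools. It was as high in dsRNA-GFP pools 3 and 4, at 8.46 and 8.07, while the remaining 4 control pools read 7.34 to 7.79. Without dsRNA-Vg pools 1 and 6 its r with miR-316 was 0.39, and for miR-3749 the value was then -0.39 and for miR-210 0.10. Of the 5, miR-3733 alone had a higher r without those pools, 0.77.

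Which miRNAs were most like miR-316 depended on the normalization. With the deposited table, without normalization between arrays and with scaling to the median, 0 of those 5 were among the 5 most like it, and with cyclic loess 1 was. The r of miR-34 was 0.08 in the deposited table, 0.27 with cyclic loess, 0.85 with scaling to the median and 0.77 with no normalization between arrays. Without normalization between arrays 124 of the 126 reporters had a positive r and the median was 0.47. Over 5 settings (quantile, cyclic loess, median scaling, no normalization and the deposited table), 14 of 126 reporters kept a positive r in all, 0 kept a negative one in all, and 0 reached 0.5 in all. The highest lowest value, picked after the values were seen, was that of miR-31a, with 0.41 in the deposited table and up to 0.69 with cyclic loess. Next came miR-275, a miRNA of egg maturation in mosquitoes, at 0.39 to 0.96, which had the highest r of all without normalization between arrays (0.93) and with scaling to the median (0.96). Without dsRNA-Vg pools 1 and 6, their r with miR-316 in the deposited table was 0.09 and -0.06.

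**Figure D4:**
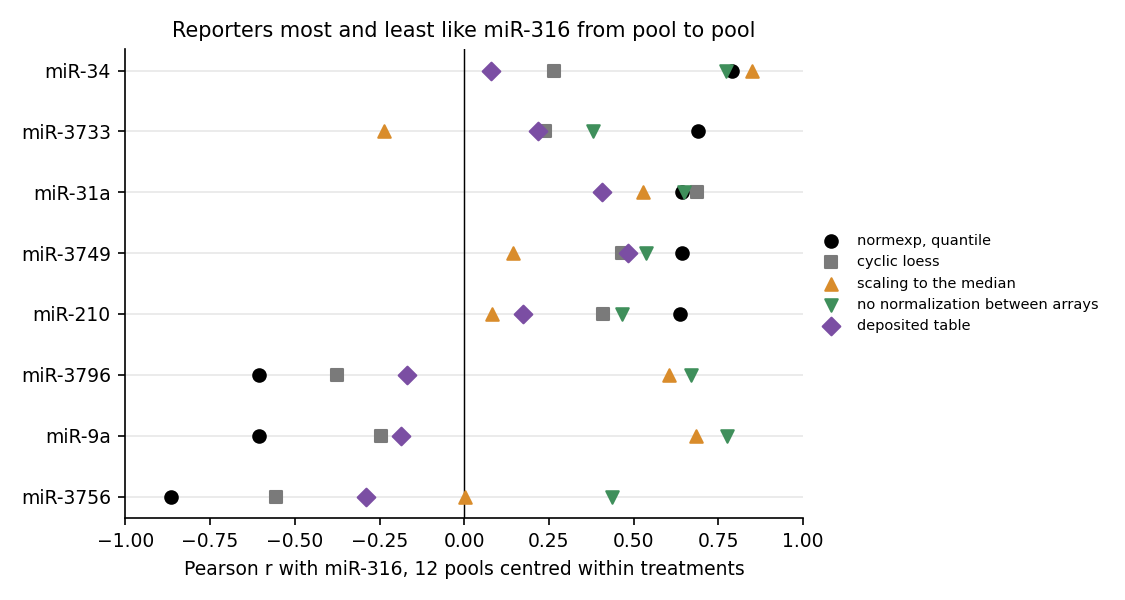
Pearson r with miR-316 over 12 pools, centred within treatments, for the 5 reporters with the highest and the 3 with the lowest r in the quantile-normalized values (black circles), and the same under 4 other settings. miR-31a stays between 0.41 and 0.69, and miR-3733, miR-3796, miR-9a and miR-3756 have values on both sides of 0.

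Abdominal carcass also holds muscle, gut remnants, nerve and epidermis, so 16 markers of these tissues and of fat body metabolism were set beside miR-316. Of the 16, 15 were tested and 9 were detected on all arrays, and 0 of their deposited values were at 0. In the quantile-normalized values, r with miR-316 was positive for 6 of the 15 and ran from -0.49 for miR-1, a muscle miRNA, to 0.64 for miR-31a. The second muscle marker, miR-133, had an r of 0.55 there. Without normalization between arrays both were positive, at 0.66 for miR-1 and 0.89 for miR-133, and in the deposited table they were -0.06 and 0.44. The summed deposited intensity of both muscle markers was 1835 to 3225 in dsRNA-Vg pools and 1618 to 5224 in dsRNA-GFP pools, which overlap. For the midgut markers miR-281, miR-1175 and miR-750 it was 175 to 5412 in dsRNA-Vg pools and 223 to 6294 in dsRNA-GFP pools, and all 3 had a negative r in the quantile-normalized values (-0.25 to -0.16). With cyclic loess the same 3 were positive, at 0.30 for miR-281, 0.36 for miR-1175 and 0.46 for miR-750. The nervous system markers summed to 107 to 237 in dsRNA-Vg pools and 132 to 189 in dsRNA-GFP pools, and the ovary marker miR-989 read 50 to 99 against 40 to 89. The 3 epithelial markers summed to 1247 to 1477 in dsRNA-Vg pools and 913 to 1625 in dsRNA-GFP pools. The 4 miRNAs of fat body metabolism, miR-8, miR-14, miR-277 and miR-278, summed to 42079 to 52112 in dsRNA-Vg pools and 40322 to 51900 in dsRNA-GFP pools. Most of this sum is miR-8, which averaged 39658 in dsRNA-Vg pools and 39176 in dsRNA-GFP pools. Single markers differed between the treatments by as much as miR-316 or more in the normalized scanner values. The log2 difference was 0.44 (SE 0.16) for miR-133 and -0.44 (SE 0.32) for miR-1. It was -0.46 (SE 0.20) for miR-281, -1.17 (SE 0.67) for miR-1175 and -1.89 (SE 0.99) for miR-750 of the midgut list. It was 0.47 (SE 0.15) for the epithelial miR-263b, but 0.19 (SE 0.12) for miR-263 and 0.02 (SE 0.18) for miR-31a. The miRNAs of fat body metabolism went both ways. The log2 difference was 0.41 (SE 0.29) for miR-278 and -0.31 (SE 0.12) for miR-14. It was -0.01 (SE 0.14) for miR-8 and 0.02 (SE 0.20) for miR-277. The part of any of these tissues in the level of miR-316 was not tested.

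The level of miR-316 was also set beside 5 measures of the whole array. Its levels were known when it was picked. The p-values here and in the next paragraph therefore describe these pools and support no relation. Shuffling over 12 pools also ignores the treatments. Over all 12 pools, 0 of the 5 relations passed in the normalized scanner values by two-sided permutation tests (100000 permutations, adjusted by Benjamini-Hochberg over the 5). With the log2 median of the empty spots r was 0.27 (p = 0.396, adjusted 0.905) and rho 0.23 (p = 0.471, adjusted 0.918), by permutation. With the number of reporters detected r was -0.34 (p = 0.296, adjusted 0.905) and rho -0.39 (p = 0.209, adjusted 0.918), by permutation. With the log2 median signal of the miRNA spots r was 0.04 (p = 0.905, adjusted 0.905) and rho -0.03 (p = 0.940, adjusted 0.940), by permutation. Without the 2 pools farthest from the median of each measure, these 3 r were 0.29, -0.06 and 0.52. Within treatments, r with the empty spots was 0.84 in dsRNA-Vg pools (exact permutation p = 0.0403, adjusted 0.188 over 10 relations) and -0.31 in dsRNA-GFP pools (exact permutation p = 0.603, adjusted 0.603). Quantile normalization gives every array the same distribution of spot values, which limits what a low r with the median signal can show. Before normalization between arrays that r was 0.30 over all 12 pools.

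PUC2PM and a-PUC2PM are control reporters, calibration spikes per the scanner files. As log2 intensity without normalization between arrays, PUC2PM read 11.18 ± 0.74 on dsRNA-Vg arrays and 9.77 ± 0.62 on dsRNA-GFP arrays (SD, n = 6 each), and 4 of 6 dsRNA-Vg arrays exceeded all dsRNA-GFP arrays. Because the treatments stand apart in it, its relation to miR-316 is best read within each. In the normalized scanner values r was -0.82 in dsRNA-Vg pools (exact permutation p = 0.0472) and -0.73 in dsRNA-GFP pools (exact permutation p = 0.0986, n = 6 each). Adjusted over the 10 relations within treatments, both were 0.188, and the rank correlations were weaker, with rho of -0.60 (exact permutation p = 0.242) and -0.37 (exact permutation p = 0.497). Over all 12 pools r was -0.16 (permutation p = 0.618, adjusted 0.905), rho was -0.11 (permutation p = 0.734, adjusted 0.918), and r was -0.13 without the 2 pools farthest from its median. For a-PUC2PM the pooled r was -0.07 (permutation p = 0.823, adjusted 0.905) and rho was -0.11 (permutation p = 0.734, adjusted 0.918), with r of -0.01 without such 2 pools, -0.72 in dsRNA-Vg pools (exact permutation p = 0.112) and -0.78 in dsRNA-GFP pools (exact permutation p = 0.075). Before normalization between arrays, r with PUC2PM was -0.72 in dsRNA-Vg pools (exact permutation p = 0.108) and 0.81 in dsRNA-GFP pools (exact permutation p = 0.0528), so its sign in the controls depended on the normalization. With PUC2PM as a covariate, taken after its difference between the treatments was known, the log2 difference of miR-316 was 0.61 (SE 0.14) in place of 0.21. A covariate that differs between the treatments shares their contrast, and its part in the result was not tested.

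**Figure D5:**
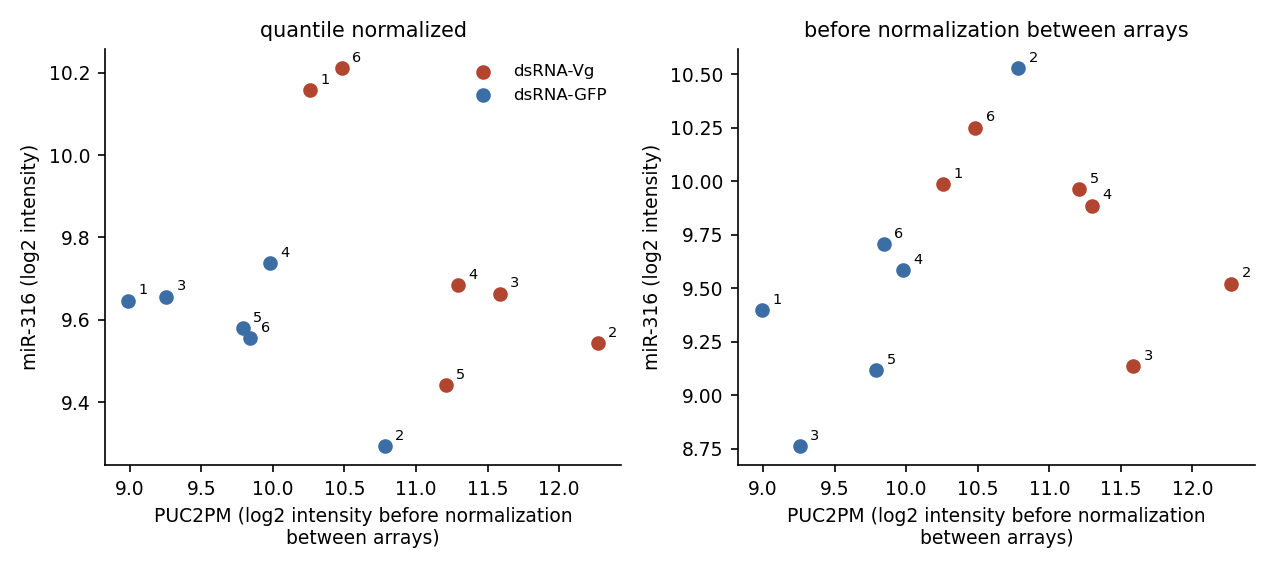
miR-316 against the control reporter PUC2PM, both as log2 intensity, in dsRNA-Vg (red) and dsRNA-GFP (blue) pools, with miR-316 quantile normalized on the left and before normalization between arrays on the right. Each point is 1 pool with its number. On the left r is negative within each treatment, and on the right within dsRNA-Vg alone. Among the dsRNA-GFP pools on the left, pool 2 has both the highest PUC2PM (10.78) and the lowest miR-316 (9.29), and rho is -0.37.

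The same relations were also computed in the deposited table, a comparison chosen after seeing the data, on levels that were known when miR-316 was picked. The p-values in this paragraph therefore describe these pools and support no relation. With the number of reporters detected, over 12 pools rho was -0.73 (permutation p = 0.00909, adjusted 0.0454) and r was -0.60 (permutation p = 0.0351, adjusted 0.176). After adjustment rho fell under 0.05 and Pearson's r did not. That adjustment covers only the 5 relations of 1 statistic in this table, and shuffling over 12 pools ignores the treatments, between which these levels differ. Without the 2 pools farthest from the median r was -0.62. Within dsRNA-Vg pools r was -0.78 (exact permutation p = 0.0458, adjusted 0.153) and rho -0.77 (exact permutation p = 0.103, adjusted 0.343). Within dsRNA-GFP pools r was -0.83 (exact permutation p = 0.0444, adjusted 0.153) and rho -1 (exact permutation p = 0.00278, adjusted 0.0278), and 0.00278 is the smallest p that 6 pools allow. The number detected averaged 96.3 ± 46.6 on dsRNA-Vg arrays and 114.8 ± 57.4 on dsRNA-GFP arrays (SD, n = 6 each). With the log2 median signal in that table, rho was -0.03 in dsRNA-Vg pools (exact permutation p = 1, adjusted 1) and -0.94 in dsRNA-GFP pools (exact permutation p = 0.0167, adjusted 0.0833), and neither passed after adjustment. Detection was taken from the scanner values alone, and its part in the difference between the treatments was not tested.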

How the data were processed

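Small RNA of 12 pools was given a poly(A) tail and an oligonucleotide tag for Cy3 dye, in 1 colour, per the labels' protocols. The deposited scanner files hold an intensity for each of 3968 spots, of which 628 were empty and 316 other controls, with no local background, and every bee reporter has 18 spots. The deposited value table holds whole-number intensities on a linear scale, and no source used here states its background treatment, normalization or centring.

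Scanner intensities were corrected with normexp (limma 3.58.1, R 4.3.3, offset 50, fitted on all spots), the log2 miRNA spots were quantile normalized, and the 18 spots of a reporter were averaged. Detection on an array meant 50% or more of a reporter's spots above the 95th percentile of the empty ones. The 127 reporters detected on at least 6 arrays were tested, 41 were left out, and 35 were detected on all. No spot was saturated (maximum 61540, limit 65535). Treatments were compared with limma (lmFit, eBayes, group only) over all tested reporters, with Benjamini-Hochberg adjustment and a threshold of 0.05. Correlations used two-sided permutation tests (100000 over 12 pools, exact within 6). The fit was tested on simulated data.

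The member and the lists were chosen with earlier results of these data known. Reporters were named by rule: the 5 most and 3 least like miR-316, those alike in sequence or seed, gene neighbours, the 2 next in signal on each side, and tissue markers. The 11 reporters tied for second place in matching positions are given as a count. The labels number the pools 1 to 6 in both groups. Same-numbered pools deviated from their group means with correlations of -0.33 to 0.70, which do not settle whether the pools were paired. The main comparison took them as unpaired, and a fit with the pool number as a block is given below. The labels do not say whether pools came from separate colonies, so p-values measure the spread between these pools only.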

Additional observations from a re-analysis of the deposited data

Results flagged for a closer look

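Among 42 sets of 6 pools that were examined for a pool far from the other 5, there were 5 such pools. About 2.1 would arise by chance if the sets were independent. They share pools and reporters, so no excess over chance is read from this. In the deposited table miR-316 read 1705 in dsRNA-Vg pool 6 against at most 1097 in the other dsRNA-Vg pools, and its share of the summed intensity was 1.04% there against at most 0.682%. Without this pool the log2 difference in that table was 0.44. The spots of miR-316 varied most in dsRNA-GFP pool 1, with a coefficient of variation of 8.30% against at most 5.54% in the other dsRNA-GFP pools. miR-210 read 7.83 on the normalized log2 scale in dsRNA-Vg pool 1 against at most 7.39 in the other dsRNA-Vg pools, and its r with miR-316 was 0.10 without dsRNA-Vg pools 1 and 6. miR-2 read 13.69 in dsRNA-GFP pool 1 and 13.78 in the other 5, a value that quantile normalization fixes.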

How the results depend on the processing

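The log2 difference of miR-316, 0.21 in the normalized scanner values, was positive in every setting run, and all settings drew on the same pools. It moved by more than the SD between pools with scaling to the median (0.51), in the deposited table (0.56), in that table scaled to the median (0.57) and with PUC2PM as a covariate (0.61), and the cause was not tested. Leaving out each pool in turn gave 0.12 (without dsRNA-Vg pool 6) to 0.27 (without dsRNA-Vg pool 5), and with the deposited values 0.44 to 0.66. With the pool number as a replicate block it was 0.21 with an SE of 0.12, and the block changed the number of limma calls to 3 from 2. That number was 1 without normalization between arrays and with scaling to the median or to the 35 reporters, 0 with PUC2PM as a covariate, and 2 to 3 without each pool in turn. The count of reporters whose groups do not overlap was 0 without normalization between arrays, where it was 3 in the values reported. Of the 5 reporters most like miR-316, none (0) appeared again with the deposited values, without normalization between arrays and with scaling to the median, 1 with cyclic loess and 3 without centring within treatments. Signs turned with scaling to the median for miR-3733 (-0.24), miR-3796 (0.60), miR-9a (0.68) and miR-3756 (0.0025), and without normalization between arrays for miR-3796 (0.67), miR-9a (0.77) and miR-3756 (0.44). Pooled r with array-wide measures turned sign in the deposited table for the empty spots (-0.30), the median signal (-0.42), PUC2PM (0.45) and a-PUC2PM (0.53), and without normalization between arrays for PUC2PM (0.30) and a-PUC2PM (0.35), and 0 of these r passed after adjustment. The covariate, the deposited table without single pools, and these last comparisons were chosen after seeing the data. Reporters near the empty spots limit what the lists of like miRNAs can show.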
